A study of Mus musculus with 8 samples.

Results

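The survival of motor neuron (SMN) complex and its partner, the methylosome, were examined in the cortex of mice that express a cytoplasmic form of human TDP-43. The SMN complex loads a ring of Sm proteins onto small nuclear RNAs in the cytoplasm, and the resulting small nuclear ribonucleoproteins (snRNPs) then enter the nucleus and take part in splicing or, for the U7 particle, in cutting the 3’ ends of histone transcripts. The methylosome, built on Prmt5 and Wdr77, first methylates arginines of several Sm proteins, which favours their binding by SMN. Loss of SMN causes spinal muscular atrophy, a disease of motor neurons. The genes were chosen by name: Smn1, Gemin4, Gemin5, Gemin6, Gemin7, Gemin8, Strap, Ddx20, Prmt5 and Wdr77. Of these 10 genes, 8 were found by symbol in the deposited results table, and all 8 were among the 10588 genes tested. Gemin6 and Gemin8 were not found there, and they have no value here.

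Both groups were C57BL/6 mice. The 4 bigenic mice carried Camk2a-tTa, a tetracycline transactivator under the Camk2α promoter of forebrain neurons, and deltaNLS-hTDP-43, human TDP-43 with a mutated nuclear localization signal under a promoter that the transactivator drives. The 4 nontransgenic mice carried neither transgene, so effects of the transactivator and of human TDP-43 cannot be told apart. All mice of both groups were fed doxycycline, which keeps the transgene off, until 28 days of age, and cortex was taken 10 days after its removal for poly(A)+ RNA sequencing. The deposited values are scaled reads per gene, given as whole numbers, and are called normalized counts here. The nontransgenic mice are called controls below. Mice are lettered a to d within each group, in no meaningful order.

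Reads on genes were estimated from the worth of 1 read in each column, at about 10.6 M for bigenic mouse b, 15.2 M for bigenic mouse a and 20.5 M to 31.9 M for the other 6 mice. For bigenic mouse c and nontransgenic mice a and b a smaller worth of a read could not be told apart from the one used, and would give 65.1 M, 45.0 M and 41.1 M reads. A transcript without a gene symbol, uc999vvf.1, is taken here as the transgene transcript. It had between 29375 and 41550 normalized counts among bigenic mice and between 5 and 80 in the nontransgenic mice, and it separated the groups as labelled. Mouse Tardbp, the endogenous TDP-43 gene, was between 4908 and 5502 and between 6116 and 7116, and it fell by 0.33 on the log2 scale (limma adjusted p-value = 0.00645). The shallowest library, bigenic mouse b, stood apart from the other bigenic mice on the first principal component of all genes tested (46.0, against 12.8 to 15.1) and on the second (-22.3, against 15.0 to 15.9). It was the highest or the lowest of the 4 bigenic mice for 6 of the 8 members, beside 5 for mouse a, 4 for mouse c and 1 for mouse d. Results are given with and without it where this matters. Of the marker lists for cell types, the 10 astrocyte markers tested summed to 125079 to 145138 normalized counts among bigenic mice and 152871 to 164432 in the nontransgenic mice, with 4 called lower and 0 higher by limma (adjusted p-value below 0.05). Over all genes tested 35.9% were called in the same fit, 15.4% lower and 20.5% higher, beside 40.0% of these markers. The 9 microglial markers summed to 5268 to 6873 and 7057 to 8321, with 5 lower and 0 higher. The 11 neuronal markers summed to 163820 to 214526 and 201842 to 220050 (5 lower, 2 higher). The ranges overlapped for these and for the 10 oligodendrocyte (0 lower, 1 higher) and the 7 endothelial markers (1 lower, 0 higher). For the neuronal markers only bigenic mouse b, with 214526, reached the range of the nontransgenic mice. The other bigenic mice all lay below that range. The 2 choroid plexus markers tested, Clic6 and Kl, were both called higher and summed to 413 to 688 and 89 to 145. Genes were tested if they reached 10 RPM in 1 or more mice, and the control means were 1.71 RPM for Clic6 and 3.56 RPM for Kl. Only bigenic mice brought them past this filter, so the direction of both calls was set by it. No value was found for Folr1, Aqp1, Kcne2, Slc4a5, Otx2 or Kcnj13, the other choroid plexus markers listed. The part of these differences in the results below was not tested, and in bulk tissue fewer cells of a type and less RNA per cell cannot be told apart.

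TDP-43 binds RNA at runs of UG repeats, so the TG runs in the members' genes are shown first. A run was defined as TGTGTGTGTGTG or longer on the transcribed strand (mm9 assembly), anywhere between the annotated start and end of the gene. The longest run of a gene is shown, of 2 in Smn1, 2 in Strap, 1 in Gemin7, 3 in Gemin5 and 3 in Wdr77. In the lines below capitals mark the run, and up to 5 flanking bases are in lower case. For Gemin5 and Wdr77 only the first 25 bases of the run are shown.
Smn1: acttcTGTGTGTGTGTGTGTGTGgaggt
Strap: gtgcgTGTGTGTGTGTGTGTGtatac
Gemin7: tttaaTGTGTGTGTGTGggggg
Gemin5: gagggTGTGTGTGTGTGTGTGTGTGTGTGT
Wdr77: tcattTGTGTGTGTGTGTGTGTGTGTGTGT
The longest Smn1 run, of 18 bases, lies in an intron at chr13:100906305-100906322 (plus strand), the Strap run of 16 bases in an intron at chr6:137690896-137690911 (plus strand), and the Gemin7 run of 12 bases in an intron at chr7:20153053-20153064 (minus strand). The Gemin5 run of 44 bases is intronic as well, at chr11:57948860-57948903 (minus strand), and so is the Wdr77 run of 26 bases at chr3:105785837-105785862 (plus strand). Gemin4, Ddx20 and Prmt5 held no such run, and 7 of the 10 members held at least 1, Gemin6 and Gemin8 included. The longest run of Gemin6, of 38 bases, lies in an intron. That of Gemin8, of 50 bases, is the longest of all members and lies in an annotated exon. Among all genes tested that were matched to the annotation, 73.7% of 10245 held one on the transcribed strand and 65.2% held CACACACACACA or longer there, which is the same run on the opposite strand. Among the 3997 genes that span less than 20000 bases, 41.5% held a run on the transcribed strand, as did 89.6% of the 3333 genes that span 20000 to 60000 bases. Gemin5, Gemin8 and Wdr77 are in the longer class and the other 7 members in the shorter one. Members that differed between the groups (Smn1, Strap, Gemin5) and some that did not pass the test (Gemin7, Wdr77) held runs, and these matches are a description of the sequence, not of binding.

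Among the 8 members tested, Gemin5 was significantly higher in the bigenic mice and Smn1 and Strap were significantly lower, by limma with a Benjamini-Hochberg adjusted p-value below 0.05. The other 5 members did not pass the test. The 3 members called are 37.5% of the 8, and 35.9% of all 10588 genes were called in the same fit, 20.5% higher and 15.4% lower. The members' share is thus close to the background. Likewise 3 of the 8 members and 46.7% of all genes had an unadjusted p-value below 0.05 in limma. The median log2 fold change (log2FC) was 0.076 over the 8 members and 0.029 over all genes tested, and its median absolute value was 0.175 and 0.249. All log2FC values are differences on the log2(normalized count + 1) scale, bigenic minus nontransgenic. In the same 3 members the normalized counts of the groups did not overlap, as they did not in 39.0% of all genes tested (22.3% higher and 16.7% lower in the bigenic mice). Without bigenic mouse b, 4 of the 8 members and 45.5% of all genes were called.

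**Figure D1:**
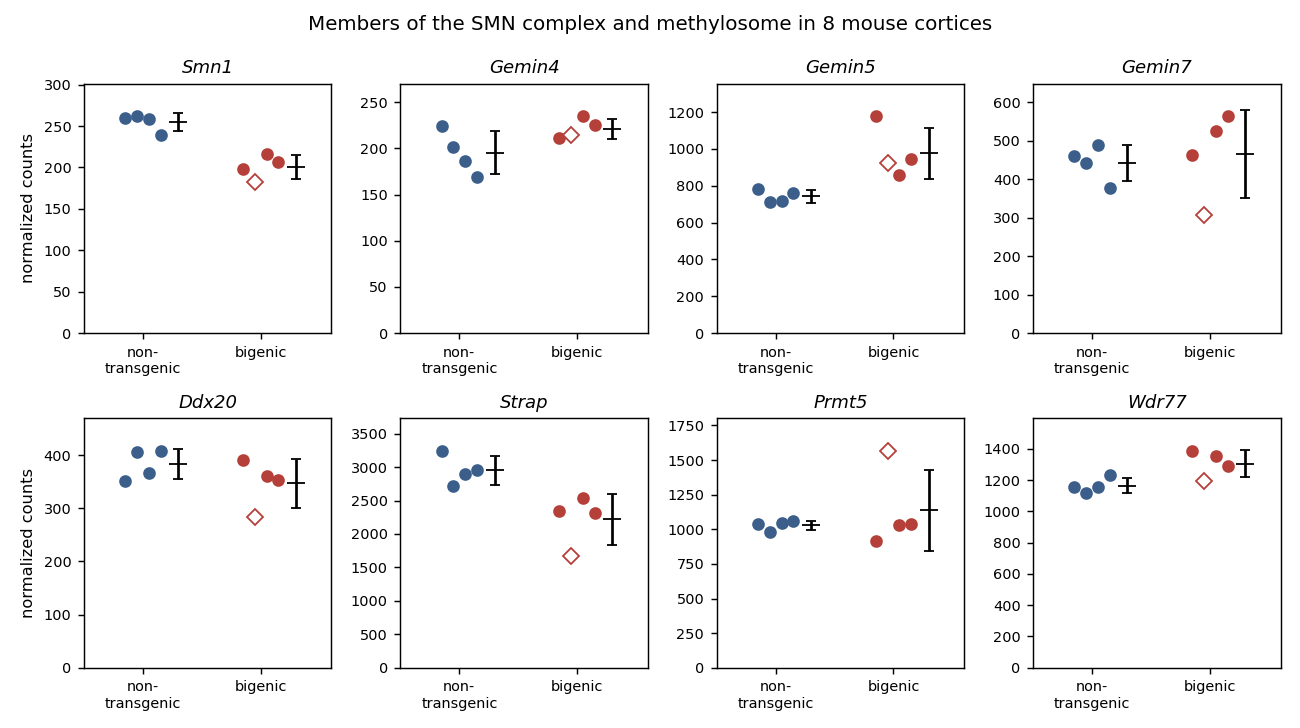
Normalized counts (vertical axes, from 0) of each member in each of 4 nontransgenic mice (blue) and 4 bigenic mice (red), with the mean and SD of each group in black. The open diamond is bigenic mouse b, the shallowest library; the groups are separate for Smn1, Gemin5 and Strap, and mouse b lies at 1566 for Prmt5 where every other mouse lies at or below 1059.

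Smn1 encodes the SMN protein, around which the complex forms. The gene (uc007rqh.1) lies on the plus strand of chromosome 13, from 100894807 to 100907645 in mm9, no other annotated gene overlaps its exons, and all of its 50-base exon windows occur once in the genome. Bigenic mice a to d had 198, 182, 216 and 207 normalized counts, and controls a to d had 260, 262, 259 and 239. Every bigenic mouse lay below every control mouse. The means were 200.8 ± 14.5 (SD, n = 4) and 255.0 ± 10.7 (SD, n = 4), so that the mean fell by 21.3%, and the log2FC was -0.35 (standard error 0.10, limma adjusted p-value = 0.0257). Without bigenic mouse b it was -0.30 (limma adjusted p-value = 0.0223). The call was lost, with the direction kept, when control mouse a, b or c was left out (limma adjusted p-values of 0.0691, 0.0762 and 0.0737). Smn1 was among the lowest genes tested, at percentile 8.9 of the mean level, with about 88 reads in bigenic mouse b, and it was not tested when every mouse had to reach 10 RPM.

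Gemin5 is the subunit that recognises the small nuclear RNAs and brings them to the complex. The gene (uc007jal.2) lies on the minus strand of chromosome 11, from 57933504 to 57982041, with no exon overlap and 99.9% of its windows occurring once. Its normalized counts were 1178, 922, 860 and 945 in bigenic mice a to d and 783, 712, 717 and 758 in controls a to d. All 4 bigenic mice lay above all 4 controls, and bigenic mouse a was the highest. The means were 976 ± 139 (SD, n = 4) and 742.5 ± 34.0 (SD, n = 4), a rise of 31.5%, and the log2FC was 0.39 (standard error 0.10, limma adjusted p-value = 0.0160). Without bigenic mouse b it was 0.41 (limma adjusted p-value = 0.00703). The adjusted p-value passed 0.05 when control mouse b or c was left out (limma, 0.0514 and 0.0503). Smn1 and Gemin5 differed in opposite directions. The ratio of Gemin5 to Smn1 normalized counts within a mouse was 3.98 to 5.95 among bigenic mice and 2.72 to 3.17 among controls. This ratio was formed after the values of both genes were known and was not tested.

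Gemin4, Gemin7 and Ddx20 are other subunits of the SMN complex. Ddx20, also called Gemin3, is a DEAD-box RNA helicase and binds Gemin4. Ddx20 (uc008qva.1, minus strand of chromosome 3, 105481178 to 105490492) had 391, 283, 361 and 353 normalized counts in bigenic mice a to d and 352, 406, 366 and 408 in controls a to d. The groups overlapped, and bigenic mouse b was the lowest of all 8 mice. The log2FC was -0.15 with a 95% interval of -0.41 to 0.11 (limma adjusted p-value = 0.336), and it was -0.055 without bigenic mouse b (limma adjusted p-value = 0.633).

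Gemin4 (uc007kfi.2, minus strand of chromosome 11, 76024073 to 76031166) had 211, 215, 235 and 225 normalized counts among bigenic mice and 224, 202, 186 and 169 in the controls. Only control mouse a reached the bigenic range. The log2FC was 0.19 with a 95% interval of -0.08 to 0.45 (limma adjusted p-value = 0.244). Annotated exons of Dbil5 and Fam57a on the opposite strand and of Glod4 on the same strand overlap those of Gemin4, and 88.1% of its windows occur once, so its counts can hold reads of these neighbours and miss reads of its own. Gemin7 forms a pair with Gemin6 in the core of the complex. Its normalized counts (uc009fmi.1, minus strand of chromosome 7, 20150295 to 20159172) were 464, 306, 526 and 564 among bigenic mice and 461, 442, 488 and 377 among controls. Bigenic mice c and d lay above all controls and bigenic mouse b lay below them. The log2FC was 0.042 with a 95% interval of -0.36 to 0.44 (limma adjusted p-value = 0.872). Without bigenic mouse b it was 0.23 (limma adjusted p-value = 0.0937), and without bigenic mouse c or d or control mouse d the direction reversed, to -0.030, -0.063 and -0.032.

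Strap encodes a WD-repeat protein, also called Unrip, that binds the SMN complex in the cytoplasm. The gene (uc012euz.1) lies on the plus strand of chromosome 6, from 137683599 to 137700453, with no exon overlap and all of its windows occurring once. Strap had 2342, 1667, 2541 and 2319 normalized counts in bigenic mice a to d and 3242, 2716, 2894 and 2951 in controls a to d. All bigenic mice lay below all controls, and bigenic mouse b was the lowest. The means were 2217 ± 380 (SD, n = 4) and 2951 ± 218 (SD, n = 4), so that the mean fell by 24.9%, and the log2FC was -0.43 (standard error 0.13, limma adjusted p-value = 0.0258). Without bigenic mouse b the size of the change was smaller, at -0.30, and its limma adjusted p-value was 0.00631. The call was lost without control mouse a, c or d (limma adjusted p-values of 0.0785, 0.0593 and 0.0539). Strap made up 26.3% to 35.7% of the summed normalized counts of the 8 members among bigenic mice and 39.7% to 43.2% among controls, while the sum itself overlapped between the groups, at 6334 to 7119 and 6842 to 7512. The lowest share was that of bigenic mouse b, with 33.1% to 35.7% in the other bigenic mice. This share is formed from the same Strap values and was not tested.

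**Figure D2:**
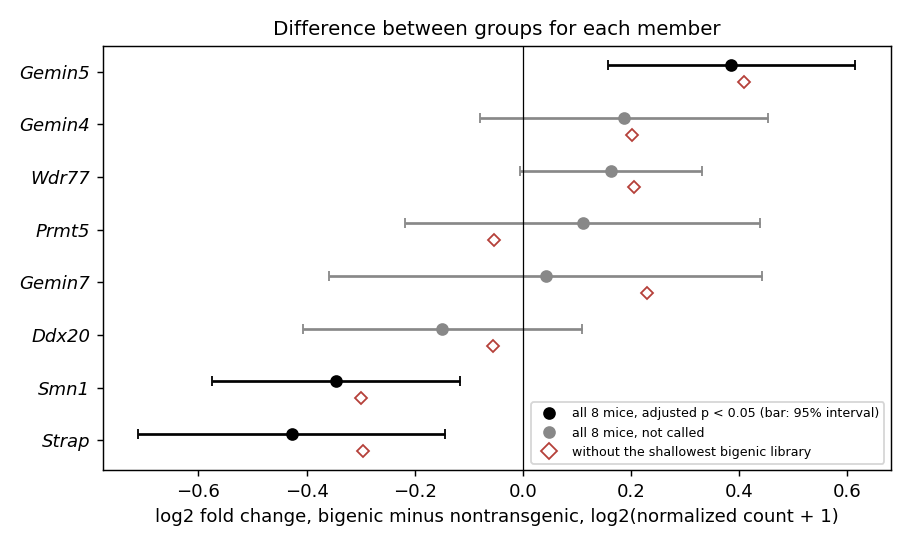
The log2FC of each member (horizontal axis, bigenic minus nontransgenic) with its 95% interval from limma over all 8 mice, in black for the 3 members called and grey for the other 5. Open diamonds give the value without bigenic mouse b, which turned the sign of Prmt5 from 0.11 to -0.054 and moved Gemin7 from 0.042 to 0.23.

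Prmt5, the enzyme of the methylosome, adds symmetric methyl groups to arginines of Sm proteins and histones. Its normalized counts (uc007twf.2, minus strand of chromosome 14, 55126024 to 55136362) were 913, 1566, 1028 and 1040 in bigenic mice a to d and 1036, 982, 1043 and 1059 in controls a to d. Bigenic mouse a lay below all controls, bigenic mice c and d lay among them, and bigenic mouse b lay far above every other mouse. The log2FC was 0.11 with a 95% interval of -0.22 to 0.44 (limma adjusted p-value = 0.580), and it was -0.054 without bigenic mouse b (limma adjusted p-value = 0.552).

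Wdr77, or Mep50, is the WD-repeat partner that presents substrates to Prmt5. Its normalized counts (uc008qvp.1, plus strand of chromosome 3, 105762287 to 105787518) were 1386, 1193, 1352 and 1287 among bigenic mice and 1154, 1120, 1153 and 1230 among controls. Bigenic mice a, c and d lay above all controls, and bigenic mouse b lay among them. The means were 1304 ± 84.9 (SD, n = 4) and 1164 ± 46.6 (SD, n = 4), with a log2FC of 0.16 and a 95% interval of -0.006 to 0.33 (limma adjusted p-value = 0.118). Without bigenic mouse b it was 0.20 and passed the test (limma adjusted p-value = 0.0212), as it did with limma's array weights (0.20, adjusted p-value = 0.00338), where 61.0% of all genes tested were called. Exons of Atp5f1 on the opposite strand and of Ovgp1 on the same strand overlap those of Wdr77, and 97.4% of its windows occur once. Its counts can therefore hold reads of these neighbours. The ratio of Wdr77 to Prmt5 normalized counts was 1.11 to 1.16 in the controls and 1.24 to 1.52 in bigenic mice a, c and d, but 0.762 in bigenic mouse b, and it was not tested.

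Levels can be compared between genes only per length, so the normalized counts were divided by the length of the longest coding transcript in the annotation. In the controls Strap had the highest level, with 1114 ± 82.4 normalized counts per kb (SD, n = 4). Gemin7 followed with 432 ± 46.2 and Prmt5 with 383 ± 12.4, and the ranges of these neighbours overlapped (368.5 to 477 and 365 to 393.5). Next came Wdr77 with 316 ± 12.7 and Smn1 with 209 ± 8.79, each clear of its neighbours. Ddx20 (132 ± 9.75) and Gemin5 (119.5 ± 5.47) overlapped, and Gemin4 was lowest with 55.1 ± 6.62. The levels of Wdr77 and Gemin4 can hold reads of the genes whose exons overlap theirs. In the bigenic mice the order was the same except that Gemin5 (157 ± 22.4) stood above Ddx20 (119 ± 15.7) and near Smn1 (164 ± 11.9). With merged exons as the length, Gemin5 (112) stood above Smn1 (98.4) and Ddx20 (92.2) in the controls, so the order of these 3 depends on the transcript assumed.

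**Figure D3:**
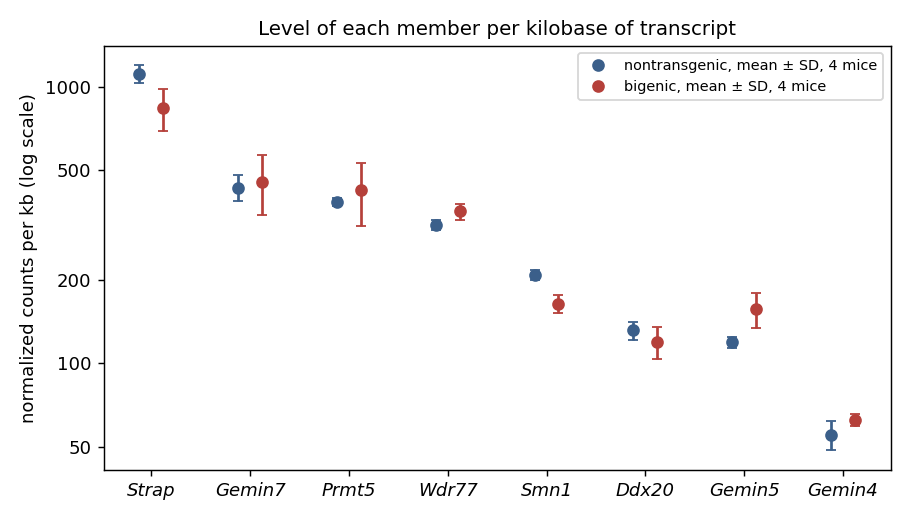
Normalized counts per kb of the longest coding transcript (vertical axis, log scale) for each member, as the mean and SD of 4 nontransgenic (blue) and 4 bigenic mice (red). The members span from 55.1 per kb for Gemin4 to 1114 per kb for Strap in the nontransgenic mice.

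The Sm proteins are what the complex assembles, and the U7 particle has Lsm10 and Lsm11 in place of some of them. Of the 7 Sm and U7 Sm-like genes tested, 2 rose, 3 fell and 2 did not pass the test (limma), with a median log2FC of -0.42, beside 35.9% called and a median of 0.029 over all genes. Snrpe, a protein of the common Sm ring, fell from 321 ± 13.8 (SD, n = 4) to 206.5 ± 31.0 (SD, n = 4) normalized counts, with a log2FC of -0.64 (limma adjusted p-value = 0.00320). Lsm11, particular to the U7 ring, fell by 0.55 on the log2 scale (limma adjusted p-value = 0.0164). Snrpd1 and Snrpd3, both ring proteins that Prmt5 methylates, differed in opposite directions, with log2FC values of -0.42 and 0.49 (limma adjusted p-values of 0.0332 and 0.0338). Snrpd1, whose log2FC is also the median of the list, was lowest in bigenic mouse b. It had 281 normalized counts there, 386 to 415 in the other bigenic mice and 452 to 533 in the controls. Without bigenic mouse b the log2FC of Snrpd1 was -0.29 (limma adjusted p-value = 0.0164). The rise of Snrpd3 was led by bigenic mouse b, with 1100 normalized counts against 648 to 751 in the other bigenic mice and 498 to 597 in the controls, and without it the log2FC was 0.32 (limma adjusted p-value = 0.0118). Snrpb, the other methylated protein, had a log2FC of 0.077 (limma adjusted p-value = 0.588), and Snrpn, its paralogue expressed in neurons and named here after its value was seen, one of 0.31 (limma adjusted p-value = 0.0483). Reads that map equally well to both paralogues were not kept by the authors. Of the 2 rises, 1 was lost when columns were rescaled to the same total, after quantile normalization and without the filter on low values, and 0 of the 7 genes were called higher by limma when bigenic mouse a or any 1 control was left out. In place of 3 falls, 2 genes were called lower by limma after rescaling and when every mouse had to reach 10 RPM. With a mouse left out, 2 to 3 were called lower.

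Of 16 other factors of snRNP assembly, capping and import that were tested, 3 rose, 2 fell and 11 did not pass the test (limma), with a median log2FC of 0.067. The 5 called are 31.2% of the list, near the 35.9% called over all genes. Ncbp1, the large subunit of the nuclear cap-binding complex, had 935 to 1159 normalized counts among bigenic mice and 1425 to 1576 in the controls, a log2FC of -0.48 (limma adjusted p-value = 0.00256). Zfp259, which encodes the SMN-binding zinc finger protein ZPR1, rose, with 1037 to 1322 normalized counts among bigenic mice and 811 to 900 among controls and a log2FC of 0.42 (limma adjusted p-value = 0.00669). Coil, the scaffold of Cajal bodies to which SMN and snRNPs go in the nucleus, rose by a log2FC of 0.36 (limma adjusted p-value = 0.0401), again with bigenic mouse b highest, at 778 normalized counts against 531 to 597 in the other bigenic mice (0.24 without it, limma adjusted p-value = 0.0222). Clns1a encodes pICln, the chaperone that hands Sm proteins to the SMN complex, and had a log2FC of -0.18 (limma adjusted p-value = 0.0984). Gemin2, which holds the Sm ring on SMN, had no row under Gemin2 or Sip1, so it has no value here.

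Of 8 other protein arginine methyltransferases, 1 rose, 3 fell and 4 did not pass the test (limma), with a median log2FC of 0.093. The 4 called are 50.0% of the list, beside 35.9% over all genes. Prmt8, a membrane-bound enzyme of the brain, had 1182 to 1390 normalized counts among bigenic mice and 1813 to 2070 in the controls, with a log2FC of -0.62 (limma adjusted p-value = 0.000456). Prmt2 fell by 0.44 on the log2 scale (limma adjusted p-value = 0.00702). Prmt1, the main enzyme for asymmetric arginine methylation, was the 1 that rose and is named for that reason, with a log2FC of 0.27 (limma adjusted p-value = 0.0263), and 0 of these enzymes were called higher by limma after quantile normalization or when bigenic mouse d or control mouse b, c or d was left out.

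Of 16 RNA-binding partners and modifiers of SMN, 4 rose, 4 fell and 8 did not pass the test (limma), with a median log2FC of -0.091. Here 50.0% were called, beside 35.9% over all genes. Ncald, a neuronal calcium sensor whose reduction protects against loss of SMN, had 6798 to 8882 normalized counts among bigenic mice and 12458 to 14766 in the controls, a log2FC of -0.78 (limma adjusted p-value = 0.000340). Elavl4, or HuD, a neuronal RNA-binding protein that associates with SMN in axons, fell, with 1566 to 2495 normalized counts among bigenic mice and 3578 to 4159 among controls and a log2FC of -0.84 (limma adjusted p-value = 0.00140). For both genes the groups did not overlap, as for 39.0% of all genes tested.

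**Figure D4:**
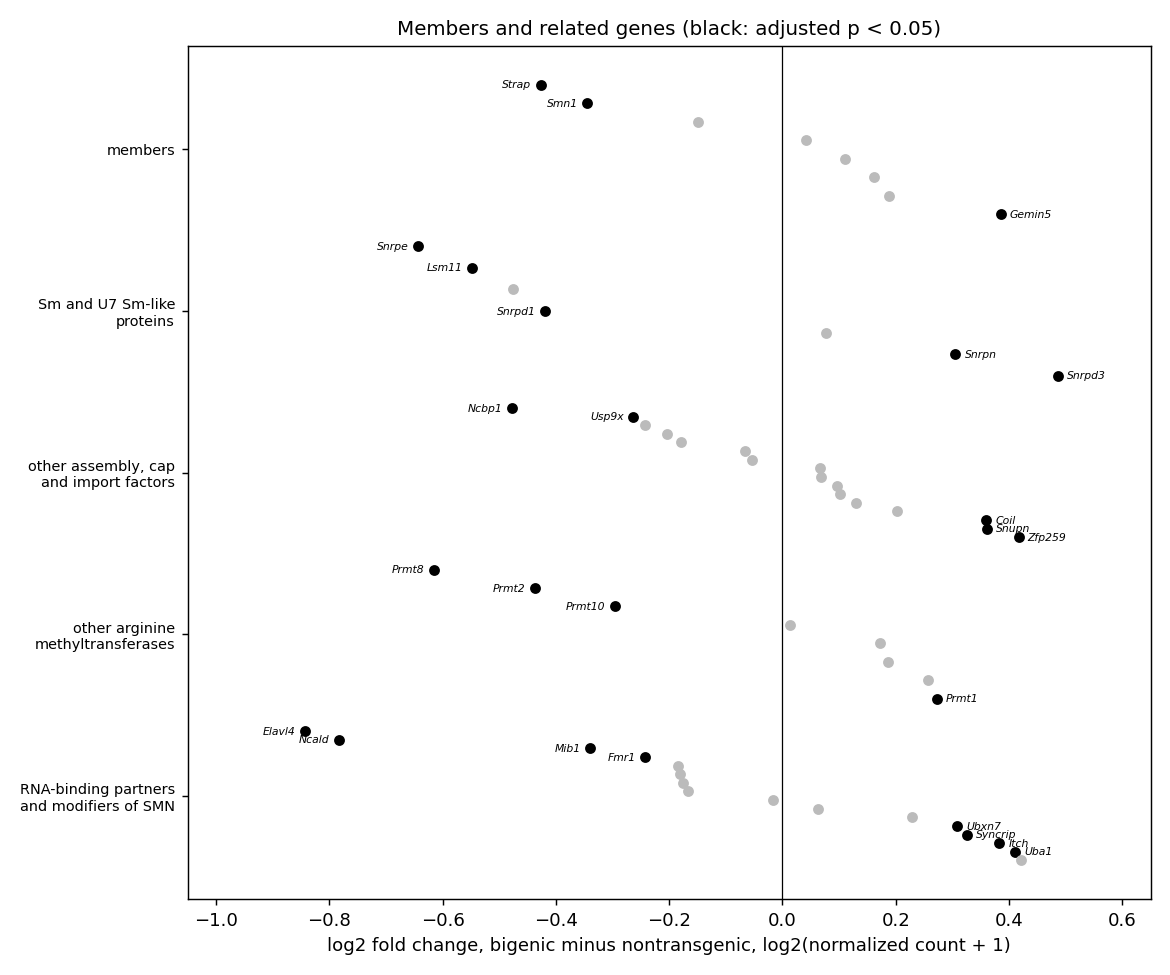
The log2FC of each gene tested (horizontal axis, bigenic minus nontransgenic, one point a gene) for the 8 members and for the 4 related lists, in black with its symbol where the limma adjusted p-value was below 0.05 and in grey otherwise. Each list holds genes called in both directions, from -0.84 for Elavl4 to 0.49 for Snrpd3.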

How the data were processed

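RNA of 4 bigenic and 4 nontransgenic cortices was sequenced. Per the methods, the authors trimmed reads with cutadapt, mapped them to mm9 with Bowtie 0.12.7, kept reads with a unique position and used bedtools to count them over the exons of each gene. Use of strand is not stated. The deposited table holds a signal (normalized counts) for 28662 transcripts, scaled and rounded by the authors, so no raw-count model was fitted. A second deposited table gave gene symbols, and the authors' DESeq2 fold changes and p-values in it were not used. Column names show the group of a mouse and no replicate number. The worth of 1 read per column was estimated from whole numbers left out or doubled by the scaling (values up to 300, steps below 0.55 not searched). On simulated columns with steps above that limit 8 of 8 were recovered. The limit was set after the likelihoods were seen. In 3 columns (bigenic c, nontransgenic a and b) the step used led the best step between 0.3 and 0.55 by less than 100 log-likelihood units or trailed it, and is taken as unresolved. With the steps used, 3 reads correspond to 1.94 to 6.20 normalized counts, and with the smaller ones to 0.96, 1.41 and 1.49 in those columns, for counting error only. The limma fit does not use these steps.

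Genes that reached 10 RPM (relative to the sum of a column) in 1 or more mice were compared as log2(normalized count + 1) with limma 3.58.1 (eBayes with a trend, R 4.3.3). Benjamini-Hochberg adjustment ran over all 10588 genes, with a threshold of 0.05. The fit was also run on simulated data with few changed genes, the same spread for every gene and no stray library. That run is thus no test of the fit under the conditions of these data. Locations come from GENCODE vM1 on the same assembly, matched by symbol. All members were named, and of each related list the 2 genes lowest in adjusted p-value together with known partners of the members. Members and lists were chosen with earlier results of these data known. Alternatives were pseudocounts of 10 and 0.1, other filters, rescaling, quantile normalization, array weights, voom (also, chosen after seeing the data, with the smaller steps), a threshold of 0.01 and leaving out each mouse.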

Additional observations from a re-analysis of the deposited data

Results flagged for a closer look

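Of 16 groups of 4 mice, 2 for each of the 8 members tested, 1 held a mouse far from the others. It was nontransgenic mouse d for Smn1, with 239 normalized counts where the other nontransgenic mice had 259 to 262. By the nominal rate of the rule, which was not measured in these data, chance flags about 1 in 20 such groups. Without this mouse the log2(fold change) of Smn1 was -0.38 (limma adjusted p-value = 0.0331).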

How the results depend on the processing

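No paired analysis was possible because the columns carry no replicate numbers. Under pseudocounts of 10 and 0.1, rescaling to the same total, no filter, quantile normalization and voom on approximate reads (with either step per read), each of the 8 members kept its direction and its side of the threshold. At an adjusted p-value below 0.01 (limma), Smn1 (-0.35), Gemin5 (0.39) and Strap (-0.43) were no longer called, leaving 0 members higher and 0 lower. Array weights added Gemin7 (0.23, adjusted p-value = 0.0268) and Wdr77 (0.20), so that 3 members were higher. With at least 10 RPM in every mouse, Smn1 and Gemin4 were not tested and 1 member was lower. Leaving out each mouse gave log2(fold changes) of -0.38 to -0.30 for Smn1, 0.12 to 0.26 for Gemin4, 0.29 to 0.44 for Gemin5, -0.063 to 0.23 for Gemin7, -0.50 to -0.30 for Strap, -0.21 to -0.055 for Ddx20, -0.054 to 0.21 for Prmt5 and 0.13 to 0.20 for Wdr77, with 0 to 2 members higher and 0 to 2 lower. Prmt5 reversed without bigenic mouse b (-0.054), and Gemin7 reversed without bigenic mouse c (-0.030) or d (-0.063) or nontransgenic mouse d (-0.032). The cause was not tested.

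Over all genes tested, 3611 were higher and 2844 lower with array weights, 1195 and 862 at 0.01, and 1512 to 2683 and 1113 to 2134 with a mouse left out. Of the Sm and U7 genes, 1 was higher with no filter, after rescaling and after quantile normalization, 0 were higher and 1 lower at 0.01 (limma), and 0 to 2 were higher and 2 to 3 lower with a mouse left out. After rescaling, and with at least 10 RPM in every mouse, 2 of them were lower. Of the assembly, cap and import factors, 6 were higher and 5 lower with array weights, 1 and 1 at 0.01, and 1 to 5 and 1 to 3 with a mouse left out. Of the methyltransferases, 0 were higher after quantile normalization and at 0.01 (limma), 3 with array weights, and 0 to 2 with a mouse left out, when 3 were lower throughout. Of the SMN partners and modifiers, 2 were higher and 2 lower at 0.01, 7 were lower with array weights, and 4 to 5 were higher and 2 to 6 lower with a mouse left out.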

Other observations

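Values of 2 other genes, chosen after they were seen, are given without a test of their pattern. Snrpd2, a protein of the common Sm ring, had 131 and 157 normalized counts in bigenic mice a and b, 405 and 441 in bigenic mice c and d, and 287 to 387 in the nontransgenic mice, so that the bigenic mice lay on both sides of the nontransgenic range (log2(fold change) -0.48, standard error 0.37, limma adjusted p-value = 0.335). Uchl1, a neuronal deubiquitinase, had 12741 normalized counts in bigenic mouse b, 6792 to 7467 in the other bigenic mice and 5870 to 6420 in the nontransgenic mice (limma adjusted p-value = 0.0813).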
